A study of Mus musculus with 80 samples.

Results

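Bivalent promoters carry 2 histone marks of opposite association at once, H3K4me3, found at active and poised promoters, and H3K27me3, laid down by Polycomb repressive complex PRC2. The regions described here are those that bore both marks at the beginning and at the end of chemical reprogramming of mouse embryonic fibroblasts (MEFs). Each is an H3K4me3 peak of the D0 (MEF) list on chromosomes 1 to 19, X or Y that shared at least 1 bp with a peak in each of 3 other lists: H3K27me3 at D0, H3K4me3 in induced pluripotent stem cells (iPSCs) and H3K27me3 in iPSCs. There were 2789 such shared bivalent peaks among 18944 D0 H3K4me3 peaks (14.7%). Presence of both marks at D0 and in iPSCs is the choice itself and is not a result; the lists of D2 to D12, the other marks, the sequence and the genes were not used to choose them.

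The data are CUT&Tag peak lists, made with a transposase that an antibody directs to chromatin bearing a given mark. The study profiled 5 marks (H3K4me3, H3K27me3, H3K27ac, the lactylation mark H3K18la and H3K9me3) at 8 stages (D0, the 6 intermediate stages D2, D4, D6 and D8, D10, D12, and the iPSCs), with 80 libraries, 2 per mark and stage, and 1 deposited list for each mark and stage. The starting cells were MEFs of passages 1-3 from 129XOG2 E13.5 embryos, which went into reprogramming medium, and the iPSCs were grown on a feeder layer of a kind not given, with LIF, CHIR99021 and PD0325901. The iPSC lists, which took part in choosing the regions and the sets compared with them, may include peaks of feeder cells. The part of feeder cells was not tested. Since each stage has 1 list, no value below has a spread between replicates, and differences between stages are differences between lists. The cells were analysed in bulk, so both marks at a region may lie on the same nucleosomes, on the 2 alleles or in different cells, and a peak lost in some cells and a weaker peak in all cells cannot be told apart. H3K4me3 lay within 1 kb of 24 of 25 pluripotency genes in iPSCs, against 11 at D0, where Pou5f1 and Nanog had none. Of 25 fibroblast and mesenchyme genes, 13 had it in iPSCs, against 23 at D0, and H3K27ac lay at 3 in iPSCs, against 19 at D0. H3K27ac lay at 15 of the 25 pluripotency genes in iPSCs, with Nanog, Esrrb and Lin28a among those without, against 5 at D0.

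In embryonic stem cells, bivalent chromatin is known from the promoters of developmental regulators, which are mostly rich in CpG dinucleotides. PRC2 and the enzymes that place H3K4me3 both act at such CpG islands. On differentiation, many of these promoters keep only 1 of the marks, H3K4me3 where the gene is switched on and H3K27me3 where it stays silent.

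Promoter sequence was the first property examined that played no part in the choice. Of the RefSeq promoters (GRCm38.p6, the 250 bases before a gene start and 50 after it), 1462 had their start inside a shared bivalent peak. Their median GC content was 65% and their median CpG count 21, with 91.2% holding at least 10 CpG. Among all 21263 promoters of the table the medians were 56.3% GC and 13 CpG, with 56.8% holding at least 10. Over all D0 H3K4me3 peaks the medians were 62.3% GC and 22 CpG, so the CpG count was that of H3K4me3-marked promoters in general. Promoters that had H3K27me3 at all 6 intermediate stages had a median of 20 CpG, against 21 at those with H3K27me3 at none.

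One promoter is shown for each of 4 courses that H3K27me3 took between D2 and D12, with every CpG in capitals. It is the listed gene with the widest D0 H3K4me3 peak among those whose start lay inside the shared bivalent peak. Hey2, a Notch target that represses transcription, had H3K27me3 at every intermediate stage (chr10:30842784-30843033, minus strand, 22 CpG). Frzb, a secreted Wnt antagonist, lacked it at D6 only (chr2:80447397-80447646, minus strand, 16 CpG). Des, the muscle intermediate filament desmin, lacked it at D6 and D12 (chr1:75360042-75360291, plus strand, 10 CpG). Pcgf3, a Polycomb group ring finger protein, lacked it from D2 to D12 (chr5:108461009-108461258, plus strand, 16 CpG). These 4 counts cover the 250 bases shown, fewer than in the promoters behind the medians above.
Hey2: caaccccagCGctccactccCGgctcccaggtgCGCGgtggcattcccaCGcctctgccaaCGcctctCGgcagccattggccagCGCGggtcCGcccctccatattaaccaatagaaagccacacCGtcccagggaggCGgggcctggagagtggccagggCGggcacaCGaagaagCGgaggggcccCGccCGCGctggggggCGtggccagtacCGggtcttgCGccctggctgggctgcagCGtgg
Frzb: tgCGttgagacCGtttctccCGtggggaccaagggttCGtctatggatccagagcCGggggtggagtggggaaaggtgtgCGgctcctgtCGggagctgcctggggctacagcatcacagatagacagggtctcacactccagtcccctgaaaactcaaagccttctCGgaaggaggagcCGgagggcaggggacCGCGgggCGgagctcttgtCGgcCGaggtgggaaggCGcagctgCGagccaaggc
Des: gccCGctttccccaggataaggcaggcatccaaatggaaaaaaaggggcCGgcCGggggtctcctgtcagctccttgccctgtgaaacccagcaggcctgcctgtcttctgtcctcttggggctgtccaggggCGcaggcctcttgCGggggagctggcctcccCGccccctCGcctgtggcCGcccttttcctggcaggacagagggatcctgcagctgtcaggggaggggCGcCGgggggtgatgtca
Pcgf3: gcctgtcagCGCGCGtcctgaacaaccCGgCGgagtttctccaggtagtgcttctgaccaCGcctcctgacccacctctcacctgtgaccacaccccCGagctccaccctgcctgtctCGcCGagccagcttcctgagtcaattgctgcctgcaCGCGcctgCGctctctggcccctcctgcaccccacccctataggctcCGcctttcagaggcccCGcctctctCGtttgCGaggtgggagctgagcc

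With an overlap of 1 bp, H3K27me3 was called at most shared bivalent peaks at every intermediate stage. At D2, 2070 of the 2789 peaks carried it (74.2%, 95% Wilson interval 72.6 to 75.8), followed by 2401 at D4 (86.1%, 84.8 to 87.3), 1512 at D6 (54.2%, 52.4 to 56.1), 1836 at D8 (65.8%, 64.0 to 67.6), 2123 at D10 (76.1%, 74.5 to 77.7) and 1471 at D12 (52.7%, 50.9 to 54.6). Over all D0 H3K4me3 peaks the share was 16.2, 22.4 and 11.8% at D2, D4 and D6, and 15.4, 21.3 and 13.6% at D8, D10 and D12. D6 and D12 were the low points and D4 the high point in both. The intervals cover counting error only. Where H3K27me3 had to cover 50% of the peak, the shares were 51.2, 66.5 and 31.5% at D2, D4 and D6, and 43.2, 54.4 and 26.4% at D8, D10 and D12, so fewer than 50% of the peaks passed at D6, D8 and D12.

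The nearest comparison is with 1552 D0 peaks that also had both marks and kept H3K4me3 in iPSCs, but had no H3K27me3 peak there, called resolved below. H3K27me3 at D2 to D12 took no part in separating the 2 sets. The shared bivalent peaks exceeded the resolved ones at D2 (74.2% against 34.2%), D4 (86.1% against 45.9%), D6 (54.2% against 19.0%), D8 (65.8% against 19.0%), D10 (76.1% against 32.3%) and D12 (52.7% against 17.1%). The intervals of the 2 sets were apart at all 6 stages. A set of 1398 peaks with H3K27me3 in iPSCs but not at D0 reached 38.1% at D10 and 25.0% at D12, and 9797 peaks with H3K4me3 and no H3K27me3 at either end lay between 0.715% and 4.16%.

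The authors' fold enrichment of H3K27me3 at D0 was higher at the shared bivalent peaks, with a median of 3.90, than at the resolved ones, with a median of 3.52. The D0 H3K27me3 peak was also wider, at 1351 bp against 730.5 bp. The sets were therefore compared within terciles of the D0 fold. In the lowest tercile, up to 3.32-fold, the D6 share was 37.3% at the shared bivalent peaks (291 of 781) and 14.4% at the resolved ones (96 of 666). In the highest tercile, above 4.28-fold, it was 69.7% (734 of 1053) and 29.9% (118 of 394). The gap was present in each tercile at all 6 stages. The terciles were cut on fold alone, and the part of the D0 H3K27me3 width in the gap was not tested.

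**Figure D1:**
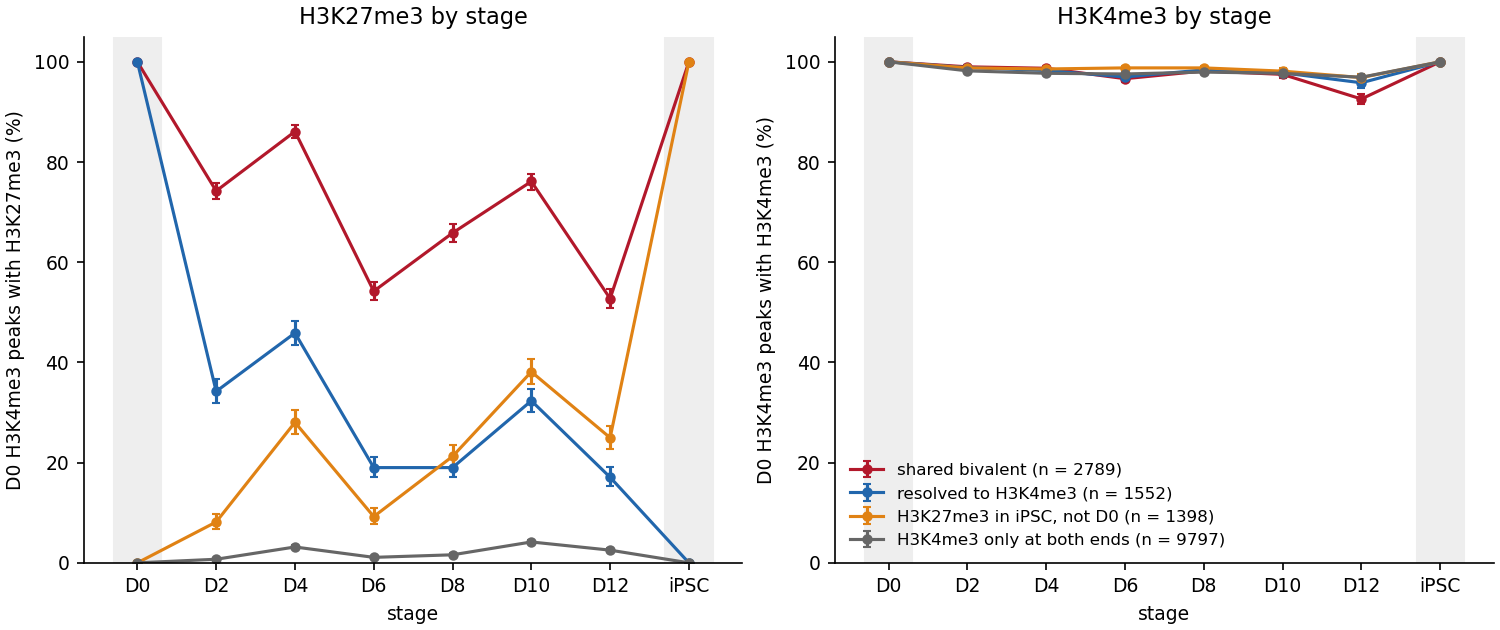
Share of D0 H3K4me3 peaks (%) that overlapped an H3K27me3 peak (left) or an H3K4me3 peak (right) of each stage, in 4 sets defined by the D0 and iPSC lists, whose shaded values of these marks are fixed by the choice; bars are 95% Wilson intervals. Shared bivalent peaks lay above the other sets for H3K27me3 at every stage from D2 to D12, between 52.7% and 86.1%.

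Single regions followed many courses. H3K27me3 was called at all 6 intermediate stages at 854 shared bivalent peaks (30.6%), against 57 of the resolved ones (3.67%) and 986 of all D0 H3K4me3 peaks (5.20%). It was called at none of the 6 at 115 (4.12%), against 540 of the resolved ones (34.8%). A further 545 had it at 5 stages, 422 at 4, 360 at 3, 303 at 2 and 190 at 1, so the median was 5 stages. After the 854, the commonest courses were absence at D12 only (231 peaks), absence at D6 only (180), absence at D6 and D12 only (152) and presence at D2 and D4 only (117).

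Calls lost at D6 were often present again at D10. Between D4 and D6, 945 of 2401 shared bivalent peaks lost the call (39.4%), against 468 of 712 resolved ones (65.7%). Of these, 647 of the 945 had it at D10 (68.5%, 65.4 to 71.3), against 185 of the 468 (39.5%, 35.2 to 44.0). Between D10 and D12, 757 of 2123 lost it (35.7%), against 311 of 502 resolved ones (62.0%). All 1318 shared bivalent peaks without H3K27me3 at D12 had it in iPSCs, which the choice of regions fixes. Absence was shared between the 2 low stages: 829 of the 1277 peaks without it at D6 also lacked it at D12 (64.9%), against 489 of the 1512 with it at D6 (32.3%). The median D0 fold enrichment of H3K27me3 was 3.46 to 3.65 at peaks with 0 to 4 intermediate calls, 3.88 at those with 5 and 4.51 at those with all 6. The median D0 width of H3K27me3 rose with each further call, from 601 bp at 0 calls to 1373 bp at 4 and 1620.5 bp at all 6.

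**Figure D2:**
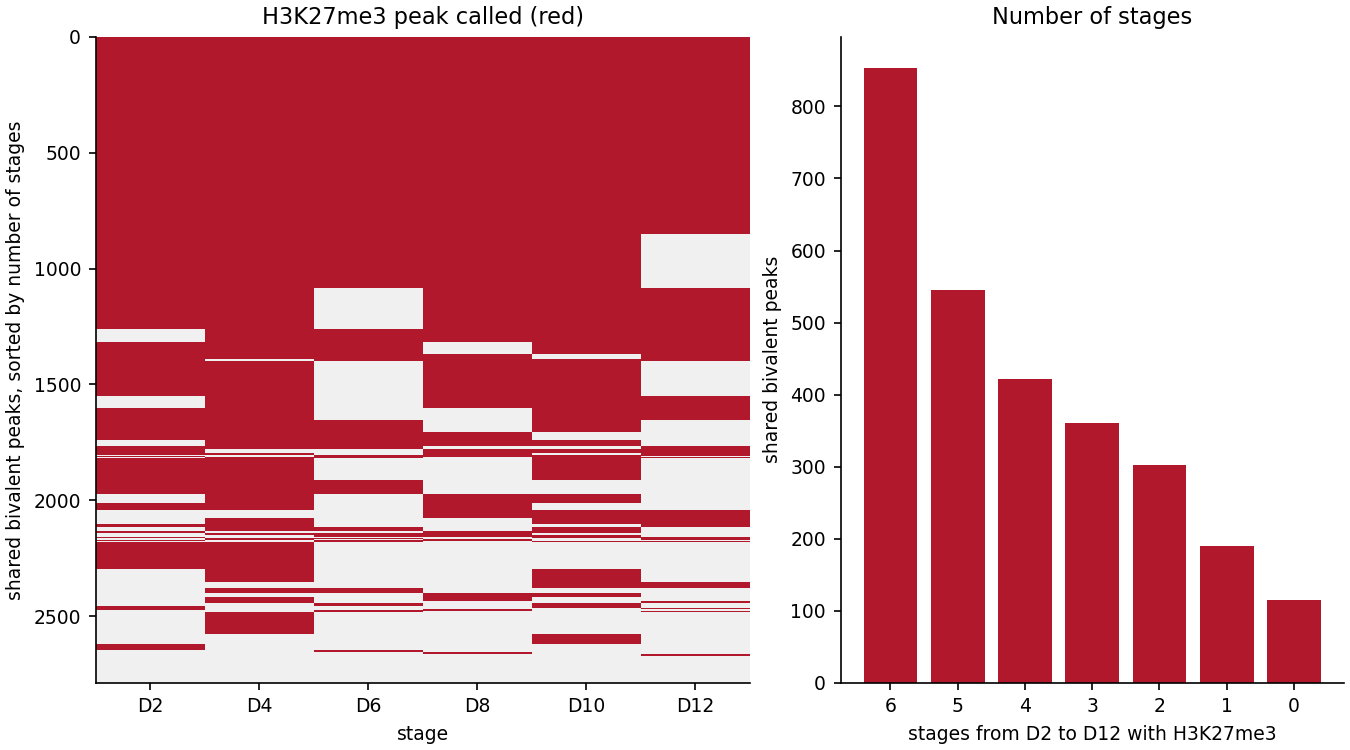
Left, H3K27me3 calls (red) at the 2789 shared bivalent peaks, 1 row per peak, by stage from D2 to D12, sorted by the number of stages with a call; right, number of peaks by number of stages with a call. The tallest bar is the 854 peaks with H3K27me3 at all 6 stages, and pale blocks cluster at D6 and D12.

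The share moved with how much of the genome each H3K27me3 list covered, and the part of list extent in the course was not tested. The lists covered 8.97, 9.24 and 4.11 Mb at D2, D4 and D6, and 7.84, 9.21 and 4.81 Mb at D8, D10 and D12. The share of shared bivalent peaks with a call had Pearson r = 0.93 with this extent over the 6 lists (two-sided exact permutation p = 0.00694, Benjamini-Hochberg adjusted 0.0278 over 4 relations). Spearman's rho was 0.94 (exact p = 0.0167, adjusted 0.0667). Without the D6 and D12 lists r was 0.85 (exact permutation p = 0.208, n = 4, where the smallest p possible is 0.0833). With day, r was -0.51 (exact permutation p = 0.292, adjusted 0.292) and rho -0.49 (exact p = 0.356, adjusted 0.356), and r was -0.17 without D2 and D12. The genome-wide background solved from the peaks, a measure of depth, was 2.745 fragments per position at D6, the lowest of the 6 intermediate lists, and 3.19 at D12, with 2.903 at D2 and up to 4.01 at D8, and its part in the low shares was not tested. With every intermediate list cut to 7574 peaks the share was still lowest at D12 (49.3%) and D6 (54.2%) and highest at D4 (78.3%). With peaks of −log10 q of at least 10 and the regions chosen again (1200), it was 27.75% at D6 and 30.7% at D12, which puts D6 lowest.

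H3K4me3 was nearly constant at the same regions. It was called at 2761 shared bivalent peaks at D2 (99.0%), 2753 at D4 (98.7%) and 2695 at D6 (96.6%), and at 2738 at D8 (98.2%), 2719 at D10 (97.5%) and 2582 at D12 (92.6%). Over all D0 H3K4me3 peaks the shares were 92.7, 90.2 and 90.4% at D2, D4 and D6, and 90.6, 88.7 and 85.3% at D8, D10 and D12. At D12 the shared bivalent peaks (interval 91.5 to 93.5) lay below the resolved ones, chosen likewise for H3K4me3 at both ends, which had it in 95.8% (94.7 to 96.7). From D2 to D10 the intervals of these sets overlapped. H3K4me3 was present at all 6 stages at 2507 peaks (89.9%) and absent from all 6 at 5. Its share had r = -0.77 with day (exact permutation p = 0.0472, adjusted 0.0944) and rho = -0.83 (exact p = 0.0583, adjusted 0.117), and r was -0.30 without D2 and D12, so the relation rests on those lists. With covered extent r was -0.59 (exact permutation p = 0.196, adjusted 0.261) and rho -0.49 (exact p = 0.356, adjusted 0.356), and r without D8 and D12 was 0.03.

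Where a shared bivalent peak was not called bivalent between the ends, it was mostly H3K27me3 that lacked the call. Both marks were called at 2048 shared bivalent peaks at D2 (73.4%, against 15.7% of all D0 H3K4me3 peaks), 2372 at D4 (85.0%, against 21.6%), 1453 at D6 (52.1%, against 11.2%), 1793 at D8 (64.3%, against 14.6%), 2061 at D10 (73.9%, against 19.9%) and 1357 at D12 (48.7%, against 12.1%). At D6, 1242 had H3K4me3 alone, 59 H3K27me3 alone and 35 neither. At D12, 1225 had H3K4me3 alone, 114 H3K27me3 alone and 93 neither. At 754 peaks (27%) both marks were called at all 6 intermediate stages.

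Width separated the 2 marks. At D0 the shared bivalent peaks had a median H3K4me3 width of 1161 bp (quartiles 794 and 1545), and 9.14% exceeded 2 kb. The other D0 peaks had a median of 1359 bp (808 and 1842), and 18.7% exceeded 2 kb. The resolved peaks, with a median of 1175 bp (801.75 and 1582), were close to the shared bivalent ones. The medians at the shared bivalent peaks from D2 to D12 were 1349, 1294.5, 1255, 1246, 1250 and 1192 bp, each above the medians of the other peaks of those lists, 1220, 1210, 1167, 1127, 1086 and 1012 bp. In iPSCs the H3K4me3 medians were 968 bp at the regions and 742 bp elsewhere. In all 8 lists, H3K27me3 peaks at these regions were wider than those elsewhere. Their median was 1294.5 bp at D0, then 848, 951 and 614 bp at D2, D4 and D6 and 731.5, 796 and 556 bp at D8, D10 and D12, with 713 bp in iPSCs, and that of all other H3K27me3 peaks lay between 398 and 565 bp. A wider peak meets a second list more easily, so the widths at D0 and in iPSCs are in part set by the choice. From D2 to D12, too, the peaks at the regions were those that overlapped one, which favours wide peaks. The part of this in the width differences was not tested.

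**Figure D3:**
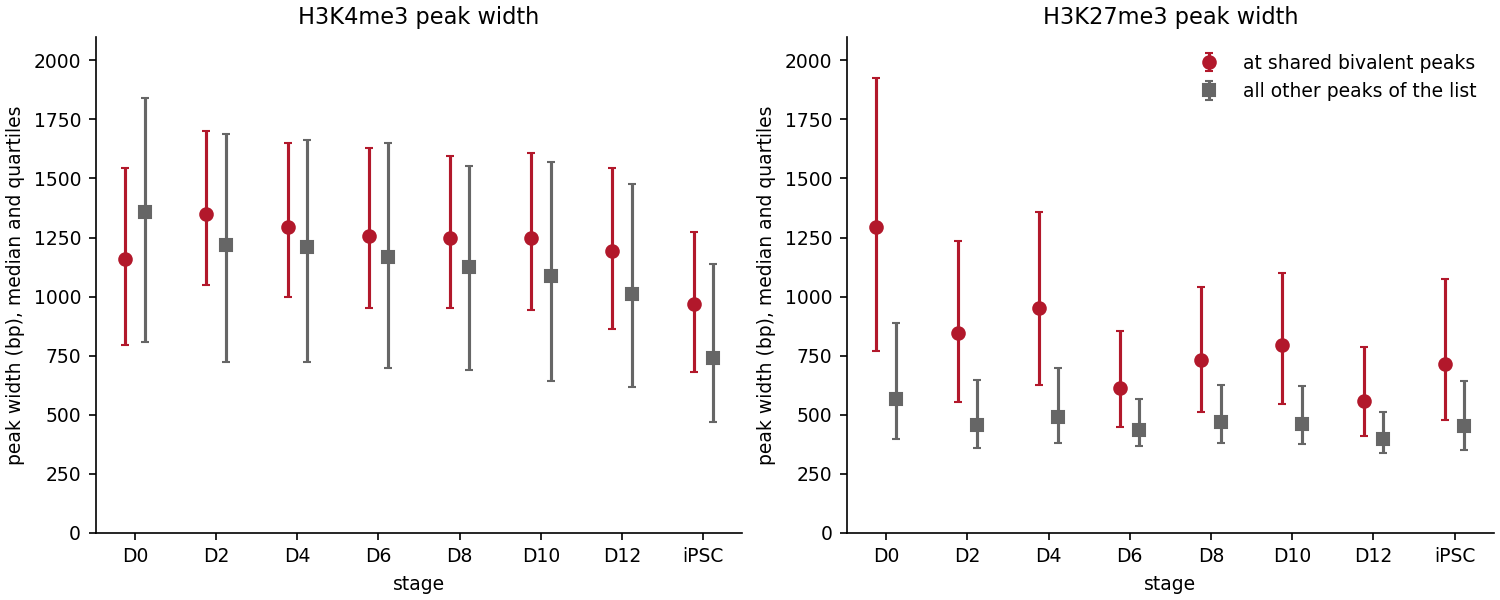
Median width (bp) with quartiles of the H3K4me3 (left) and H3K27me3 (right) peaks at shared bivalent peaks and of all other peaks of the same list, at each stage. H3K27me3 peaks at the regions were narrowest at D12 (556 bp) and D6 (614 bp), and widest at D0 (1294.5 bp).

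Narrow D0 H3K4me3 went with more H3K27me3 at D2, D6 and D8. In the tercile of shared bivalent peaks up to 926 bp wide at D0, H3K27me3 was called at 81.4% at D2, 60.4% at D6 and 69.9% at D8. In the widest tercile, above 1394 bp, it was called at 66.2%, 46.5% and 60.8%. At D4 the middle tercile was highest, with 89.2%, against 86.0% in the narrowest and 83.0% in the widest. At D10 and D12 the widest tercile, with 76.1% and 52.9%, was close to the narrowest, with 76.8% and 50.9%. Among the 15 widest D0 peaks, 11 had a gene within 1 kb, among them Pcdh10 and Pcdh17, adhesion proteins of the protocadherin family, Cdk6, a cell cycle kinase, Nes, the intermediate filament nestin of neural progenitors, Fzd1, a Wnt receptor, and Egr2, an early growth response factor. The H3K4me3 peak at Pcdh10 was 4482 bp wide at D0, between 1620 and 2110 bp from D2 to D12 and 1217 bp in iPSCs, while its H3K27me3 peak was 2373 bp wide at D0, at least 745 bp wide at all 6 intermediate stages and 574 bp wide in iPSCs. At Nes the H3K4me3 peak was 1036 bp wide in iPSCs and 3614 bp at D0, with H3K27me3 called at D4, D8 and D10 of the intermediate stages. Cdk6 kept an H3K4me3 peak of 3529 to 3675 bp in all 8 lists.

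The acetylation mark H3K27ac, found at active promoters and enhancers, was not used to choose the regions. It was called at 65.9% of the shared bivalent peaks at D0 (82.1% of all D0 H3K4me3 peaks), 56.7% at D2 (68.9%), 48.5% at D4 (58.7%), 53.5% at D6 (60%), then 41.5% at D8 (53.6%), 48.7% at D10 (59.8%) and 61.1% at D12 (65.9%), with 23.3% in iPSCs (36%). The share was below that of all peaks in every list. The order of stages changed with list length: with all H3K27ac lists cut to 16671 peaks the share was 34.5% at D0, 44.1% at D2 and 48.5% at D4, which turns the order of these stages round, and 19.3% in iPSCs remained the lowest. It was close to that of the resolved peaks from D0 to D6 and at D12, and below it at D8 (41.5% against 48.6%), D10 (48.7% against 54.5%) and in iPSCs (23.3% against 36.1%), where the intervals were apart. H3K27ac in all 8 lists was found at 303 shared bivalent peaks (10.9%) and in none at 336 (12%).

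H3K27ac and H3K27me3 modify the same lysine and cannot lie on 1 histone tail. At D2, H3K27ac was called at 52.9% of shared bivalent peaks with H3K27me3 and at 67.5% of those without. D4 (47.1% with, 57.5% without) and D10 (46.1% with, 56.9% without) showed the same order. At D8 the shares were 40.6% and 43.1%, with overlapping intervals. At D6 and D12 the order was reversed, with 59.2% and 65.7% at peaks with H3K27me3 and 46.8% and 55.9% at those without. D6 and D12 are the lists with the least H3K27me3 covered, and the part of this in the order was not tested. Without the 251 regions that had H3K9me3 in any list, the shares were 55.1% with and 45.8% without at D6, and 61.6% with and 54.9% without at D12.

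H3K18la, derived from lactate and found at active promoters and enhancers, was called at 50.9% of the shared bivalent peaks at D0 (47.5% of all D0 H3K4me3 peaks), 29.0% at D2 (30.6%), 48.9% at D4 (46.8%), 56.3% at D6 (57.6%), then 46.5% at D8 (47.9%), 24.7% at D10 (30.4%) and 26.8% at D12 (33.5%), with 47.5% in iPSCs (37.1%). In iPSCs it stood above the background share, where H3K27ac stood below, but so did the resolved peaks (44.2%, 41.7 to 46.7), whose interval overlapped that of the shared bivalent peaks (45.7 to 49.4). With all H3K18la lists cut to 7009 peaks the shares were 31.6, 29.0, 31.2 and 24.0% from D0 to D6 and 27.2, 23.5, 21.6 and 27.5% from D8 to iPSC, so D6 was no longer the highest. The D2 list of H3K18la carries a library number in its peak names and may hold 1 library. Peaks with H3K27me3 at all 6 intermediate stages had H3K18la in iPSCs at 64.2% (548 of 854), and those with H3K27me3 at none at 36.5% (42 of 115). For H3K27ac in iPSCs these shares were 36.1% and 18.3%. At D6 the H3K27ac shares were 65.5% and 49.6%, but at D0 they were 67.2% and 77.4%. The H3K27ac intervals overlapped at D0, D2, D4, D8, D10 and D12. The 251 regions with H3K9me3 in any list, which held 157 of the 854, had H3K18la in iPSCs at 84.9% and H3K27ac at 64.5%.

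**Figure D4:**
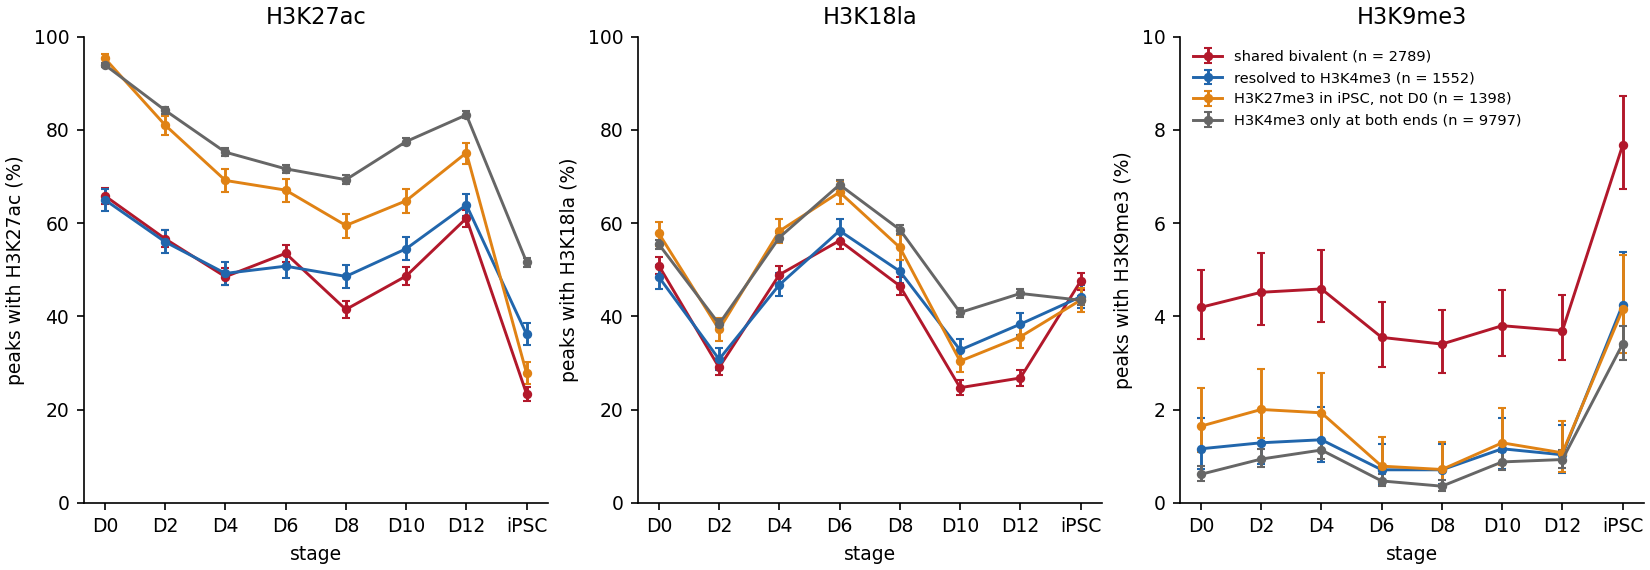
Share of D0 H3K4me3 peaks (%) with H3K27ac, H3K18la or H3K9me3 at each stage in 4 sets defined by the D0 and iPSC lists of H3K4me3 and H3K27me3, with 95% Wilson intervals; the H3K9me3 axis ends at 10%. Shared bivalent peaks had H3K27ac least often in iPSCs (23.3%) and H3K9me3 most often of the 4 sets at every stage.

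H3K9me3, a mark of heterochromatin and silenced repeats, was rare but above background. It was called at 4.2% of the shared bivalent peaks at D0 (1.31% of all D0 H3K4me3 peaks), 4.52% at D2 (1.54%), 4.59% at D4 (1.71%), 3.55% at D6 (0.961%), then 3.41% at D8 (0.876%), 3.8% at D10 (1.3%) and 3.69% at D12 (1.27%), with 7.67% in iPSCs (3.73%). It lay mostly away from genes: at D0, 101 of 760 shared bivalent peaks with no gene start within 1 kb had it (13.3%), against 16 of 2029 near a gene (0.789%). In all, 251 had H3K9me3 in at least 1 list, and H3K27me3 was called at all 6 intermediate stages at 157 of them (62.5%), against 697 of the other 2538 (27.5%).

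A small group had peaks of everything. At 49 shared bivalent peaks every one of the 40 lists had a peak, with a median D0 width of 725 bp. The genes with the highest authors' H3K27me3 fold in iPSCs among those with H3K27me3 at all 6 stages included 2610042L04Rik, Gm3739, Gm8108, Gm10406 and Gm2237, all on chromosome 14 and with H3K27ac peaks in all 8 lists. Predicted genes of this kind often occur in near-identical copies, and how reads of such copies were placed was not given in the sources used here. Without the 49, H3K27me3 was called at 53.4% at D6 and 51.9% at D12, and without the 251 with H3K9me3 at 51.7% and 49.8%.

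Most of the regions lay at genes. Of the 2789, 2029 (72.8%) were within 1 kb of a protein-coding gene start, or of either gene end where the table gave no start, compared with 68.7% of all D0 H3K4me3 peaks. They belonged to 2057 genes, 15.5% of the 13288 genes with a D0 H3K4me3 peak in that window. Shares per chromosome ran from 13% of D0 H3K4me3 peaks on chromosome 16 to 19.5% on chromosome 6 among the autosomes, with 7.41% on X (42 of 567) and 0 of 12 on Y. The 760 regions away from genes were narrower at D0 (median 880.5 bp, against 1263 bp near genes) and had H3K27me3 at D6 in 57.5%, against 53.0%.

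Listed developmental transcription factors were 67 of the 2057 genes (3.26%), but a raised share of the factors themselves. Of 278 genes in 8 lists of such factors, 191 had a D0 H3K4me3 peak and 67 of these were at a shared bivalent peak (35.1%, against 15.5% of all genes). A further 73 of the 191 were at resolved peaks only (38.2%, against 8.91% of all genes), so the raised share was not limited to the shared bivalent peaks. Hox genes (14) and homeobox genes outside the clusters (38) were more numerous at resolved peaks only, and basic helix-loop-helix genes (5) less so. Basic helix-loop-helix factors, which drive neural, muscle and other lineages, had the highest share, 16 of 25 (64.0%, exact 95% interval 42.5 to 82.0). T-box genes followed with 4 of 8, homeobox genes outside the Hox clusters with 28 of 84, forkhead genes with 7 of 21, Sox genes with 4 of 14, Gata and Pax genes with 1 of 4 each and Hox genes with 6 of 31. H3K27me3 was at 54, 57 and 43 of the 67 at D2, D4 and D6, at 51, 61 and 43 at D8, D10 and D12, and at 29 of the 67 at all 6 stages (43.3%). Over all 2057 genes the H3K27me3 shares were 73.5, 86.7, 52.8, 63.7, 74.8 and 51.7% from D2 to D12, with 28.2% at all 6 stages. The numbers per list are small and the lists were not tested against each other.

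Several regulators of germ layer and neural fate kept H3K27me3 throughout. Mixl1, a homeobox factor of mesoderm and endoderm, had an H3K4me3 peak of 1010 to 1268 bp from D2 to D12 (chromosome 1, 180696470 to 180697484 for the D0 peak, mm10). Its H3K27me3 peak was 2552 bp wide at D0, then 2143, 2200 and 966 bp at D2, D4 and D6 and 1926, 1170 and 327 bp at D8, D10 and D12, with 921 bp in iPSCs, so the mark was narrowest at D12 without a stage lacking it. Neurog1, a proneural factor, had H3K27me3 over 843 to 1102 bp at the 6 intermediate stages and 1472 bp in iPSCs, and H3K4me3 over 470 bp at D0 and 1052 to 1426 bp from D2 to D12. Meox2, a homeobox factor of somites, kept H3K27me3 of 1239 to 2165 bp from D2 to D12 but had no H3K4me3 peak at D12. Hoxb1, the anterior gene of its cluster, likewise had H3K27me3 at all stages (1033 to 1873 bp) and no H3K4me3 peak at D12.

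Others had H3K27me3 at only some stages. Eomes, a T-box factor of mesendoderm and trophoblast, had it over 1661 bp at D0, at D4 and D8 alone in between, and over 1751 bp in iPSCs, and its H3K4me3 peak was 1992 to 3107 bp wide from D2 to D12. Irx5, an Iroquois homeobox factor, lacked H3K27me3 from D2 to D8 and had it at D10 (759 bp) and D12 (586 bp). Sox7, a factor of endothelium and primitive endoderm, had it at D2 and D4 and not from D6 to D12. Hoxc4 was the single transcription factor gene of the 67 without an H3K27me3 call at any intermediate stage, and had H3K27ac peaks at D10 (1054 bp) and D12 (1844 bp) alone.

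Listed signalling genes were 42 of the 2057 genes (2.04%). Of 124 genes for ligands, receptors and secreted inhibitors, 102 had a D0 H3K4me3 peak. Of these, 42 were at a shared bivalent peak (41.2%, against 15.5% of all genes). A further 20 were at resolved peaks only (19.6%, against 8.91% of all genes). Secreted antagonists were 10 of 17, Fgf ligands 8 of 15, Wnt ligands 8 of 17, TGF-beta family ligands 8 of 22, Eph and ephrin genes 6 of 21 and hedgehog pathway genes 2 of 10. H3K27me3 was called at 30, 36 and 19 of the 42 at D2, D4 and D6 (71.4, 85.7 and 45.2%). Over all 2057 genes these shares were 73.5, 86.7 and 52.8%. At D8, D10 and D12 it was called at 31, 33 and 31 (73.8, 78.6 and 73.8%, against 63.7, 74.8 and 51.7%). It was called at all 6 stages at 13 (31.0%, against 28.2%). D12 stood furthest from the share of all genes. D6 was the low point, with 2 of the 8 Wnt ligands, Wnt10a and Wnt16, and neither of the hedgehog genes.

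Grem1, an antagonist of BMP ligands, had H3K27me3 at all stages, over 2411 bp at D0, then 1246, 2229 and 359 bp at D2, D4 and D6 and 1829, 1900 and 996 bp at D8, D10 and D12, with 1894 bp in iPSCs. The narrowing at D6 was followed by a return of the width at D8. Its H3K27ac peak was called from D0 to D6 (699, 2119, 1253 and 1024 bp) and at no later stage. Wnt2 lacked H3K27me3 at D6 alone, where its H3K4me3 peak was 2431 bp wide, and Bmp2, a BMP ligand, had H3K27me3 at D4 alone between the ends and H3K27ac in all 8 lists. Epha6, an ephrin receptor, had the steadiest width of these examples, 1796 to 2325 bp at all 8 stages. Wnt4 and the Wnt antagonist Dkk3 had H3K27me3 at D0 and in iPSCs and at no stage in between, with H3K4me3 at every stage.

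**Figure D5:**
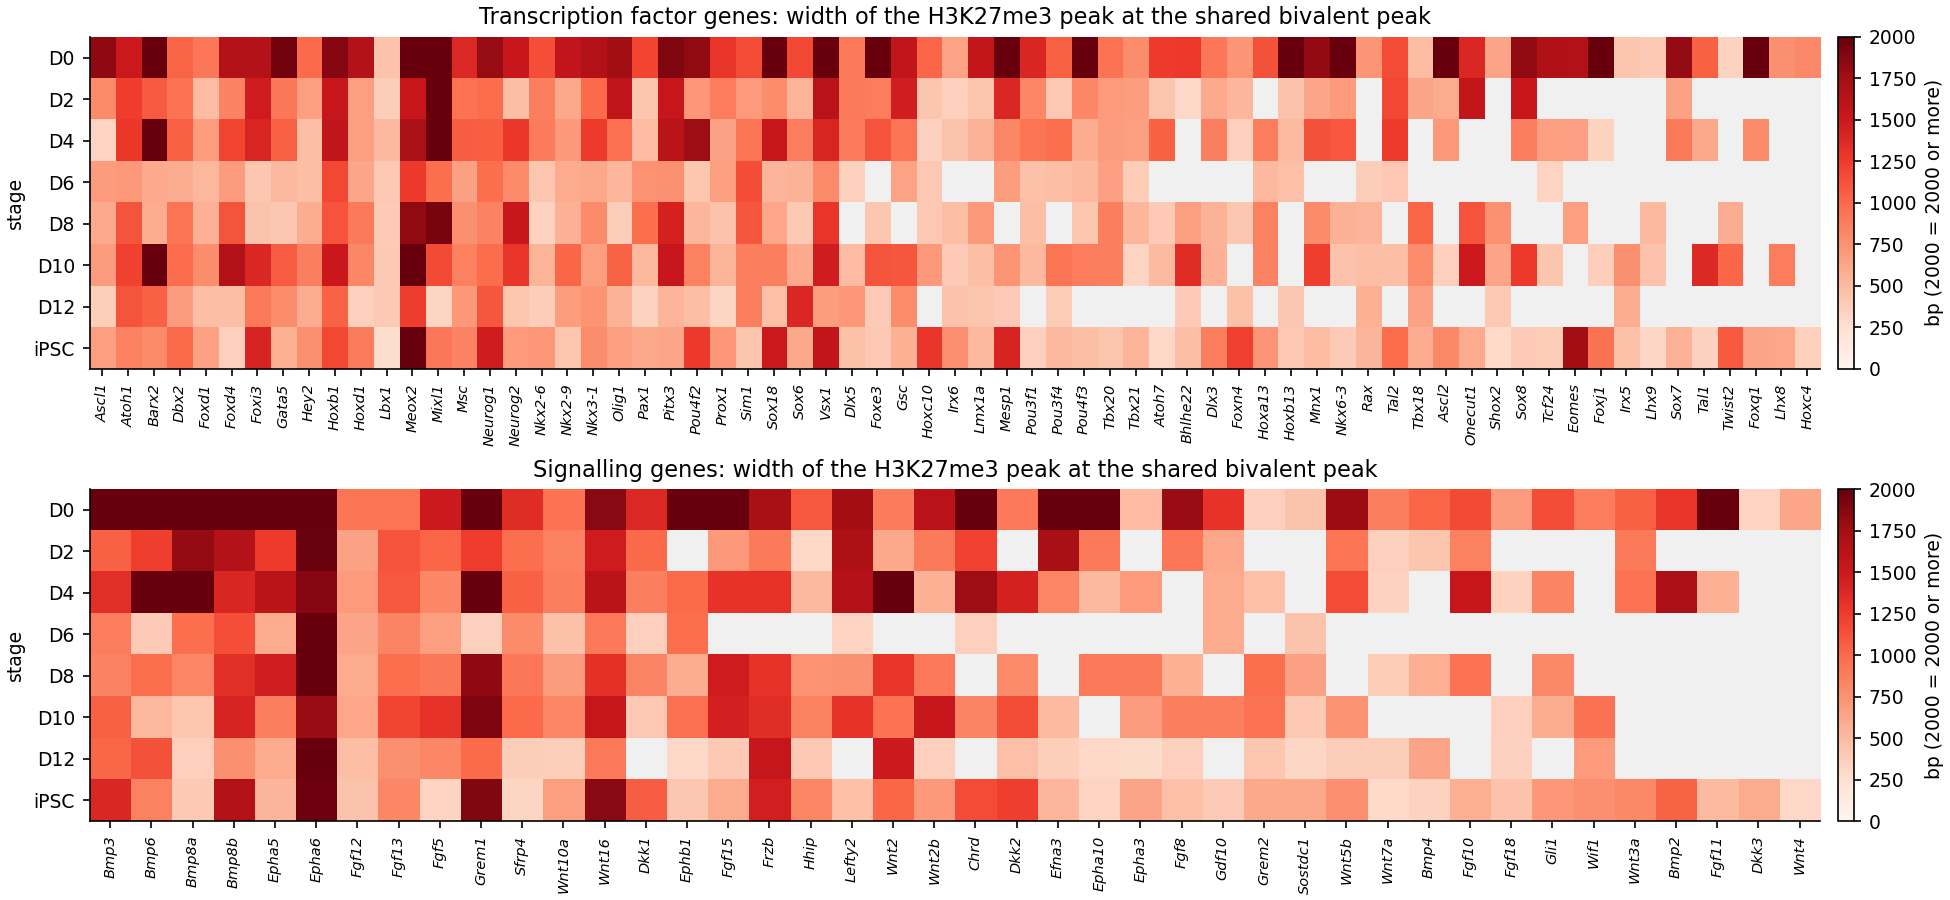
Width (bp, colour) of the H3K27me3 peak at the shared bivalent peak of each listed transcription factor gene (top) and signalling gene (bottom) at the 8 stages, ordered by the number of intermediate stages with a call; pale cells have no peak. Pale cells are most numerous at D6 and D12 in the top panel (43 of 67 genes with a peak at each). In the bottom panel they are most numerous at D6 (19 of 42 with a peak, against 31 at D12). Hoxc4, Dkk3 and Wnt4 are pale from D2 to D12.

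Epithelial genes at the regions mostly lacked H3K27me3 from D8 on. Of 19 with a D0 H3K4me3 peak, 9 were at a shared bivalent peak (47.4%, exact interval 24.4 to 71.1, against 15.5% of all genes). A further 8 were at resolved peaks only, where 8.91% of all genes lay, so the raised share was not limited to the shared bivalent peaks. H3K27me3 was called at 8 of the 9 at D2, at D4 and again at D6, and at 3, 3 and 2 of them at D8, D10 and D12. The H3K27me3 shares over all 2057 genes were 73.5, 86.7 and 52.8% at D2, D4 and D6, and 63.7, 74.8 and 51.7% at D8, D10 and D12. H3K27ac was at 3 of the 9 at D0, then at 5, 2 and 4 at D2, D4 and D6 and at 5, 8 and 7 at D8, D10 and D12, with 1 in iPSCs. Over all 2057 genes the H3K27ac shares were 68.9% at D0, 58.0, 49.4 and 55.0% at D2, D4 and D6, 42.8, 49.8 and 63.2% at D8, D10 and D12, and 22.6% in iPSCs. Epcam, Krt19, Ocln, Ovol2 and St14 had H3K27me3 at D2, D4 and D6 and at none of D8, D10 and D12, a course shared by 46 of all 2057 genes (2.24%). This course was singled out after its values were seen. At Epcam, an epithelial adhesion molecule, H3K27me3 was 1748 bp wide at D0, then 422, 484 and 361 bp at D2, D4 and D6, without a peak from D8 to D12, and 337 in iPSCs. The H3K4me3 peak there was 979 bp wide at D0, then 1336, 1382 and 1298 bp at D2, D4 and D6 and 1402, 3060 and 1897 bp at D8, D10 and D12, with 993 bp in iPSCs, and H3K27ac was called from D8 to D12 alone. Ovol2, a repressor of mesenchymal genes, had its widest H3K4me3 peaks at D10 (2657 bp) and D12 (2642 bp). The junction gene Cldn3 kept H3K27me3 at all 6 stages, and Dsp, for desmoplakin of desmosomes, lacked it at all 6.

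Fibroblast genes were few. Of 23 with a D0 H3K4me3 peak, 3 were at a shared bivalent peak, Thy1, Twist2 and Cdh2. All 3 had H3K27ac from D0 to D6, and none had it at D10 or D12. None had H3K27me3 at D6, and all 3 had it at D8 and D10. At Twist2, a mesenchymal basic helix-loop-helix factor, H3K4me3 was 2724 bp wide at D0, 2031 bp at D10, but 593 bp at D12 and 742 bp in iPSCs, and H3K27me3 was 343 bp wide at D0, absent from D2 to D6, 592 bp at D8, 1021 at D10, absent at D12 and 1083 in iPSCs. In iPSCs these peaks may include the feeder cells, whose part was not tested.

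Some lists had no gene at the regions. None of 11 pluripotency genes, 24 housekeeping genes and 24 oxidative phosphorylation genes with a D0 H3K4me3 peak was at a shared bivalent peak (exact upper bounds 28.5, 14.2 and 14.2%). The share over all genes was 15.5%, which lies within the pluripotency bound, so those 11 genes were not set apart from it. The lists differed at the resolved peaks, which held 7 of the 11 pluripotency genes and none of the other 2 lists. The Polycomb list had 3 of 30, Pcgf3, Pcgf5 and Phf19 (10%, exact interval 2.11 to 26.5, which includes the share over all genes). Among markers of other cell types, D0 H3K4me3 lay at 3 of 8 endothelial, 2 of 8 macrophage and 4 of 8 neuronal genes. It lay at 2 of 8 muscle, 2 of 8 trophoblast and 7 of 13 primitive endoderm genes. Over all protein-coding genes it lay at 13288 of 21887. Of those with it, 1 endothelial (Kdr), 1 macrophage (Cd14) and 2 neuronal genes (Tubb3, Syt1) were at a shared bivalent peak. So were 1 muscle (Des), 1 trophoblast (Ascl2) and 2 primitive endoderm genes (Sox7, Lama1). The share over all genes was 15.5%, and these lists are too small to be set against it. Syt1, a synaptic vesicle protein, had H3K27me3 at all 8 stages, over 598 to 2167 bp.

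Beyond the lists, genes were named by their iPSC H3K27me3 fold within a course. Of the genes lacking H3K27me3 at D6 alone, Ahr, the aryl hydrocarbon receptor, had a fold of 8.03 in iPSCs and 4.69 at D0. Prdm9, a histone methyltransferase of meiosis, lacked it at D6 and D12 only, with folds of 7.09 in iPSCs and 4.74 at D0 and H3K27ac peaks in all 8 lists. Nlgn1, a synaptic adhesion protein, and Cxcl5, a chemokine, followed the same course. Among genes with H3K27me3 at no intermediate stage, Pabpc4, a poly(A)-binding protein, Pde8a, a cyclic AMP phosphodiesterase, Rnf43, a ubiquitin ligase that restrains Wnt receptors, and Per3, a circadian clock gene, had folds of 5.02 to 6.32 in iPSCs. At Rnf43 the H3K4me3 peak was widest at D10 (2278 bp) and D12 (2226 bp), against 465 bp in iPSCs. Within each list these folds are the authors' values for single peaks and are not compared as changes between stages.

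Some microRNA genes lay at the regions. Of 1005 hairpins, 165 lay within 1 kb of any D0 H3K4me3 peak, and 15 of these within 1 kb of 12 shared bivalent peaks. Among protein-coding genes the count was 2057 of 13288 (15.5%), a larger share than that of the hairpins. Mir9-1 and Mir137, microRNAs of neural progenitors and neurons, Mir152, and Mir203, which is enriched in skin epithelium, were picked out after the values were seen. H3K27me3 was called between the ends at all stages but D6 at Mir9-1, at D2, D4 and D10 at Mir137, at D8 alone at Mir152 and at no stage at Mir203. One mature arm of each is printed from RefSeq (GRCm38.p6) with the seed, bases 2 to 8, in capitals.
mmu-miR-9-5p: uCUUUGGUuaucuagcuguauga
mmu-miR-137-3p: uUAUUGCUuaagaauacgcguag
mmu-miR-152-3p: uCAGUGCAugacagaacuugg
mmu-miR-203-3p: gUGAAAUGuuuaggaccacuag

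The edge of the choice was an overlap of 1 bp. The smallest overlaps inside it were 39 bp for H3K27me3 at D0, 25 bp for H3K4me3 in iPSCs and 2 bp for H3K27me3 in iPSCs. Peaks that met the other conditions missed these lists by as little as 15, 83 and 4 bp. The median part of a shared bivalent peak covered was 92.6, 82.4 and 63.9% by the 3 lists. Asking each list to cover 50% of the peak left 1491 regions.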

How the data were processed

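Of 80 CUT&Tag libraries, 2 per mark and stage by their titles, the authors deposited 40 peak lists, 1 per mark and stage. The submitters' processing notes name MACS2 2.1.2, Bowtie2 2.2.5, deepTools 3.4.3 and fastp 0.20.1, and the build mm10. Pooling of libraries and use of a control were not given in the sources used here, and nothing says that the libraries came from separate cultures. Each deposited peak carries the authors' fold enrichment, a ratio of summit pileup to local background, with −log10 of the p-value and of the q-value as deposited, used to describe, rank or filter peaks within a list. The lists stop at a p-value of 1.0e-05, so weaker marks are missing.

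From these, peaks of 1 list were joined to the D0 H3K4me3 peaks by overlap of at least 1 bp on chromosomes 1 to 19, X and Y, which left out 3092 of 713652 peaks. Shares have 95% Wilson intervals and gene lists exact Clopper-Pearson intervals, covering counting error only. Relations over 6 lists used two-sided exact permutation tests with Benjamini-Hochberg adjustment. The most common local background, solved from fold and p-value under the caller's Poisson model, stood for depth, and the solving was tested on simulated data. Genes were 21887 protein-coding RefSeq genes of GRCm38.p6 (the coordinates of mm10), 17492 with a start and 4395 with gene bounds only, within 1.0 kb of a peak. Python 3.11.15 with numpy 2.4.6, pandas 2.3.3, scipy 1.17.1 and matplotlib 3.10.9 was used.

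The regions, gene lists, tests and alternatives were chosen with earlier results of these data known. Named genes were those of 27 gene lists, those at the 15 widest D0 peaks, and for each of 4 H3K27me3 courses the 10 with the highest authors' fold of H3K27me3 in iPSCs. Promoters were those of listed genes at the widest peaks of each course, outside chromosome 18. Alternatives were a −log10 q-value of at least 10, 50% coverage, lists of equal length, a 2.5 kb window and, added after seeing the data, leaving out regions with H3K9me3 in any list.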

Additional observations from a re-analysis of the deposited data

How the results depend on the processing

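No paired analysis was possible because each mark and stage has 1 list with no values per library; leaving out replicates in turn was not run for the same reason. Regions numbered 1491 with 50% of the D0 peak covered, 1200 with −log10 q of at least 10 and 1312 with lists of equal length, against 2789. The mean share over D2 to D12 is given for −log10 q of at least 10, 50% coverage, equal lengths and regions without H3K9me3, in that order. H3K27me3 gave 51.6, 45.5, 61.5 and 66.6%, against 68.2%. Both marks gave 50.3, 43.4, 57.9 and 64.9%, against 66.2%. Over all 8 lists H3K27ac gave 30.9, 29.7, 38.1 and 46.9%, against 49.9%, H3K18la 23.1, 19.6, 26.9 and 37.7%, against 41.3%, and H3K9me3 6.77, 3.45, 3.84 and, by construction, 0%, against 4.43%. H3K4me3 gave 95.2, 94.0 and 97.4% in the last 3, against 97.1%. For width, the median of the 6 stage medians from D2 to D12 was taken with −log10 q of at least 10. It was 1243.25 bp for H3K4me3 and 939.25 bp for H3K27me3, against 1252.5 and 763.75 bp. In this setting 872 genes remained in the window, with 28 transcription factor and 18 signalling genes, against 2057, 67 and 42. The H3K27me3 relation to covered extent was 0.85 without D6 and D12, where 4 lists cannot give a p below 0.0833, and the H3K4me3 relation turned to 0.030 without D8 and D12; the cause was not tested. H3K27me3 was highest at D4 under all of these, and the shared bivalent peaks exceeded the resolved ones at all 6 stages with the stricter q and with equal lengths. A missing call may be a weak mark, and no value here measures variation between libraries.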
